A study of Mus musculus with 17 samples.

Results

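The comparison described here set astrocytes of the primary somatosensory cortex against astrocytes of the ventral posteromedial nucleus (VPM), the thalamic nucleus that relays touch from the face to that cortex. It took 8 of the 17 RNA-seq libraries of the series, 4 labelled cortex (a to d) and 4 labelled VPM (a to d), chosen by their tissue label, and covered every gene with a raw count. All 8 came from mice of the FVB strain at postnatal day 7 (P7) with the genotype Gfap::GFP, a line in which a *Gfap* promoter drives green fluorescent protein in astrocytes and cells related to them, and the labels give no treatment. Each library was made from 4 pooled brains, so a replicate is a pool of animals, and p-values measure the spread between such pools. Cells were dissociated from dissected slices and sorted by their green fluorescence (FACS). The labels give the cells as astrocytes in both groups, and the sort rests on a single transgene. The other 9 libraries, 5 from the dorsal lateral geniculate nucleus (dLG) and 4 from the ventral medial geniculate nucleus (MGv), which relay vision and hearing, were used only to place genes of the pair beside the other thalamic nuclei.

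Astrocytes take up glutamate and GABA, buffer potassium, share metabolites through gap junctions and secrete proteins that shape synapses. In the first postnatal weeks they still divide and mature, and Wnt, Sonic hedgehog, FGF, Notch and BMP signals act on them. The cortex arises from the telencephalon, whose progenitors use *Emx1*, *Emx2* and *Lhx2*, and the thalamus from the diencephalon, where genes of the *Irx*, *Zic* and *Otx* families act. The question of the pair was therefore how the transcriptomes of astrocytes differ between a thalamic nucleus and the cortical area it projects to.

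Levels are given in CPM, the counts of a gene relative to the total of its library, scaled by TMM factors that correct for the composition of each library. Differences are given as log2 fold changes of the VPM over the cortex (log2FC), so a positive value means a higher level in the VPM. A gene was called differentially expressed (a DEG) at a Benjamini-Hochberg adjusted p under 0.1 in edgeR's quasi-likelihood test over all tested genes. Higher and lower compare the VPM with the cortex unless another nucleus is named. Totals ranged from 18213687 to 50366363 counts per library, and cortex a was the deepest, at 2.42 times the median of the other 7. A count of 3 stood for 0.0596 to 0.165 CPM in these libraries. Between 21059 and 23365 genes had a count per library. Pairs of libraries within a group correlated with Spearman's rho of 0.976 to 0.990, and no pair was close enough to be a library deposited more than once. Y-linked transcripts were close to absent in cortex b and VPM d and present in the other 6, so the sexes of the pools were not balanced. The 6 X- and Y-linked marker genes gave no DEG in edgeR's quasi-likelihood test, 0 at an unadjusted p under 0.05 and 0 in DESeq2. *Xist*, which silences an X chromosome, stood at 25.2, 90.9, 104 and 20.2 CPM in cortex a to d and 51.5, 108, 65.2 and 85.3 CPM in VPM a to d, and its ranges overlapped (log2FC 0.37, adjusted p = 0.742).

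The labelled cell type was checked against its markers. The 17 astrocyte marker genes summed to 17512, 17537, 16904 and 17223 CPM in cortex a to d and 9179, 12709.6, 12614 and 11781 CPM in VPM a to d. The sum was lower in each VPM library than in each cortex library (log2 ratio -0.58, exact two-sided permutation test over the 70 arrangements p = 0.0286, the smallest p that 4 against 4 allows, and 0.0571 after adjustment over the 6 marker lists). VPM a was lowest of the VPM libraries for 16 of the 17 markers. The markers did not move together: 8 were DEGs higher in the cortex, 1 was higher in the VPM and 8 were no DEGs. *Slc1a3*, the most abundant of them in the cortex, weighed most in the sum, at 5094 CPM on average there and 1556 CPM in the VPM. In bulk samples, fewer cells of a type and less RNA of its markers per cell cannot be told apart. Genes of the oligodendrocyte lineage were also abundant and summed to 8939, 9209, 8763 and 11014 CPM in cortex a to d and 14996, 8949, 12750.0 and 12436 CPM in VPM a to d. Here VPM b lay within the cortical range and the other 3 VPM libraries lay above it (log2 ratio 0.37, exact p = 0.0857, adjusted 0.129). The 12 pan-neuronal markers summed to 1516, 1816, 1520.3 and 1606 CPM in cortex a to d and 1891, 1275, 1588 and 2226 CPM in VPM a to d. These ranges overlapped, with VPM b lowest and VPM d highest of the VPM libraries (exact p = 0.543).

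Markers of the remaining cell types were rare. The 10 microglial markers summed to 50.0, 46.8, 58.6 and 53.8 CPM in cortex a to d and 39.0, 46.4, 55.7 and 49.4 CPM in VPM a to d, and the groups overlapped (exact p = 0.314). The 13 vascular markers summed to 40.0, 47.4, 66.5 and 66.6 CPM and 11.3, 4.70, 16.995 and 20.7 CPM, and the 8 ependymal markers to 9.23, 37.4, 59.8 and 131 CPM and 5.85, 4.81, 8.67 and 7.30 CPM. Both sums were higher in every cortex library than in every VPM library (log2 ratios -2.04 and -3.16, exact p = 0.0286 each, adjusted 0.0571). Most of the cortical vascular sum came from the pericyte genes *Pdgfrb* and *Rgs5*, with means of 37.3 and 10.9 CPM, and as a mean of log2(CPM + 0.5) over the list the vascular difference was -0.40 (exact permutation p = 0.171). Other pericyte genes of the list were low in both groups. In the cortex and the VPM, *Kcnj8* averaged 0.567 and 0.344 CPM, *Abcc9* 0.382 and 0.321 CPM and *Vtn* 1.33 and 1.64 CPM. Cortex d held the highest and cortex a the lowest ependymal sum of the cortex. Only 7 vascular and 5 ependymal markers had enough counts to be tested. The part of these other cells in the gene results below was not tested.

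**Figure D1:**
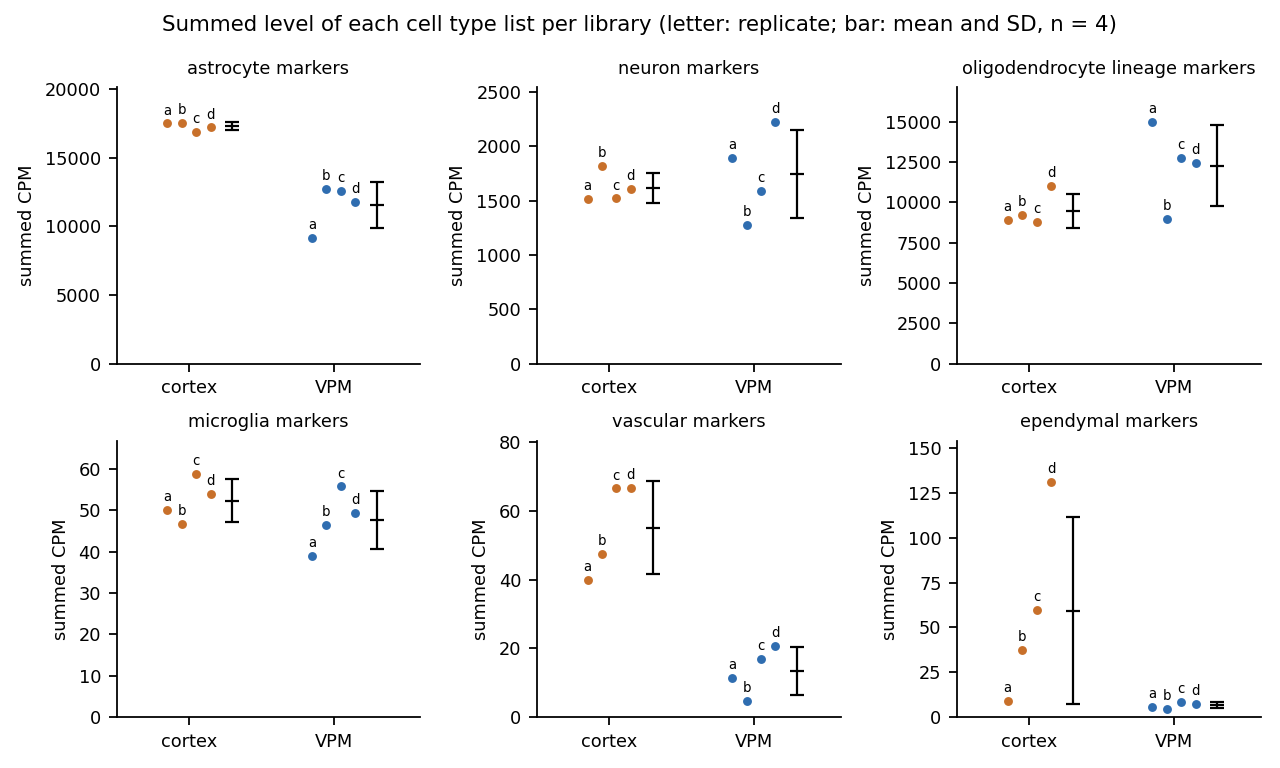
Summed CPM (vertical axis, linear) of 6 lists of cell type markers in each library, with a lettered point per library and the mean and SD of each group beside them (n = 4). The astrocyte sum is lower in all 4 VPM libraries, the oligodendrocyte lineage sum is highest in VPM a, and the vascular and ependymal sums are higher in all 4 cortex libraries.

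Of 15993 genes tested, 2861 were DEGs (17.9%). More genes were higher in the cortex, 1687 of those tested (10.5%), than in the VPM, 1174 (7.34%). With an absolute log2FC above 1 as a further condition, 817 (5.11%) were higher in the cortex and 411 (2.57%) in the VPM. The median log2FC over all tested genes was 0.01, and among DEGs the median size was 0.97 for genes higher in the cortex and 0.73 for genes higher in the VPM. A log2FC larger than 4 was found for 115 DEGs higher in the cortex and 57 higher in the VPM. Without regard to the test, the 4 cortex libraries lay above the 4 VPM libraries for 1641 genes (10.3%) and below them for 1325 (8.28%). Most DEGs were protein coding, 1607 of those higher in the cortex and 1095 of those higher in the VPM. Genes with a mean above 100 CPM were among the DEGs in both directions, 363 higher in the cortex and 286 in the VPM. Leaving out VPM a, the library with the lowest astrocyte sum, gave 1343 genes higher in the cortex and 826 in the VPM. Below, a count or p said to hold without a library comes from the same test after that library was left out. The library numbers of the pair fall into 2 series, libraries a and b of both groups and libraries c and d of both groups. Within libraries a and b, 665 genes were higher in the cortex and 284 in the VPM, and within libraries c and d 1088 and 520, with 2 libraries a group in each fit. A model of all 17 libraries, in which the 4 regions share an estimate of the spread, gave 971 and 636. Leaving out cortex b and VPM d together, the libraries that lack Y-linked counts, gave 1116 and 650, a fit chosen after seeing the data. A list count from these fits is given below where it moved by over 1.5 times, and an adjusted p where it ended a call. For the fit without cortex b and VPM d, those adjusted p values stand in the closing section.

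**Figure D2:**
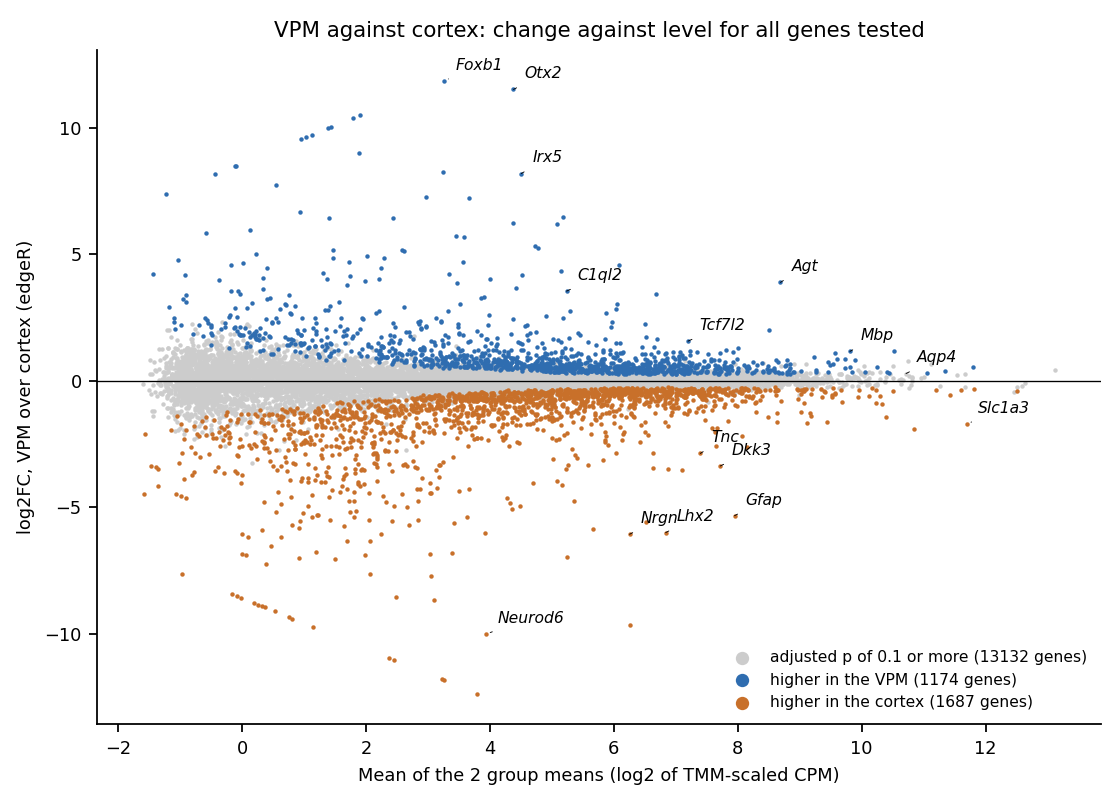
Log2FC of the VPM over the cortex for each of the 15993 tested genes (vertical axis) against its mean log2 CPM over the 8 libraries (horizontal axis), with DEGs in color. DEGs lie on both sides over the range of levels, 1687 below the zero line (higher in the cortex) and 1174 above it (higher in the VPM).

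Among the 12 genes of lowest p on the VPM side were transcription factors of the *Irx*, *Otx* and *Zic* families, most of them close to absent in the cortex. *Otx2* (ENSMUSG00000021848, chromosome 14 from 48657677 to 48673819, GRCm38), a homeobox factor of forebrain and midbrain patterning, stood at 0, 0, 0 and 0.0473 CPM in cortex a to d and 34.1, 55.6, 41.4 and 35.5 CPM in VPM a to d. The cortex held 1 read of this gene in 1 library. The ratio of the pooled counts was 4560, with an exact 95% interval of 818 to 180154 for counting error alone (adjusted p = 2.1e-09). *Irx5*, *Irx2* and *Irx1*, Iroquois homeobox factors, followed. *Irx2* was measured at 1.49, 0.480, 0.438 and 0.946 CPM in cortex a to d and 61.7, 80.1, 71.3 and 55.5 CPM in VPM a to d, and no cortex library came near the VPM range (log2FC 6.18, SE 0.30, adjusted p = 3.0e-08). *Irx5* gave log2FC 8.19, adjusted p = 5.0e-09, and *Irx1* log2FC 4.70, adjusted p = 7.4e-08. The zinc finger factors *Zic1* and *Zic4* were at 18.8 and 7.41 CPM in the VPM on average and close to or at 0 in each cortex library (adjusted p = 3.6e-07 and 4.4e-07).

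Genes that are no transcription factors completed that list. *Agt*, angiotensinogen, the precursor of angiotensin that brain astrocytes secrete, stood at 51.1, 58.8, 48.6 and 51.0 CPM in cortex a to d and 628, 765, 864 and 835 CPM in VPM a to d. The VPM libraries lay far above the cortex libraries, which differed little among themselves (log2FC 3.88, SE 0.13, adjusted p = 1.1e-09), and *Agt* was also among the 6 genes with the largest gain in mean CPM. *C1ql2*, a secreted C1q-like protein that binds at synapses, was at 5.58, 5.19, 6.23 and 6.95 CPM in cortex a to d and 77.3, 59.3, 75.6 and 65.6 CPM in VPM a to d, again with a wide gap (log2FC 3.54, SE 0.15, adjusted p = 8.2e-09). *Il33*, an alarmin cytokine that developing astrocytes release, stood at 15.96 ± 3.53 CPM in cortical and 115 ± 17.8 CPM in VPM libraries (SD, n = 4; log2FC 2.84, adjusted p = 2.2e-07). *Nid1*, nidogen of basement membranes, stood at 0.864 ± 0.294 CPM in cortical and 71.5 ± 16.6 CPM in VPM libraries (SD, n = 4; log2FC 6.46, adjusted p = 1.3e-08). *Tmem117*, a multi-pass membrane protein, stood at 5.48 ± 2.05 CPM in cortical and 131 ± 7.17 CPM in VPM libraries (SD, n = 4; log2FC 4.59, adjusted p = 2.6e-08).

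On the cortical side, the 12 genes of lowest p held the forebrain factor *Lhx2*, neuronal genes and genes of astrocytes. *Gfap*, the astrocyte intermediate filament gene that the reporter line is named for, was measured at 430.4, 451, 529 and 518 CPM in cortex a to d and 8.60, 18.8, 11.3 and 9.07 CPM in VPM a to d. All 4 VPM libraries lay far below all 4 cortex libraries (log2FC -5.34, SE 0.24, adjusted p = 1.1e-08). The cells of both groups were sorted by the green fluorescence of the Gfap::GFP transgene, which is separate from the *Gfap* gene measured here. *Fgfbp3*, a secreted carrier of FGFs, stood at 265, 253, 278 and 214 CPM in cortex a to d and 21.9, 23.6, 22.8 and 19.7 CPM in VPM a to d, with little spread in either group (log2FC -3.52, SE 0.12, adjusted p = 1.1e-09). *Dkk3*, a secreted relative of the Dickkopf Wnt inhibitors, stood at 368, 389.9, 402 and 377 CPM in cortex a to d and 33.8, 34.2, 40.2 and 39.9 CPM in VPM a to d and did so just as evenly (log2FC -3.37, SE 0.11, adjusted p = 5.9e-10). *St6galnac5*, a sialyltransferase of gangliosides, gave log2FC -5.60, adjusted p = 3.0e-10, *Serpinf1*, the secreted factor PEDF, log2FC -5.86, adjusted p = 6.5e-09, and *Entpd2*, an ectonucleotidase that splits ATP, log2FC -2.85, adjusted p = 1.7e-08. *Emid1*, an extracellular EMI domain protein, averaged 488 ± 27.3 CPM in cortical and 79.9 ± 7.53 CPM in VPM libraries (SD, n = 4), and *Mpped1* gave log2FC -4.74, adjusted p = 5.5e-09. *Nrgn*, neurogranin of cortical excitatory neurons, stood at 142, 165, 158 and 137 CPM in cortex a to d and 2.61, 2.02, 2.55 and 1.72 CPM in VPM a to d, and *Neurod6*, a transcription factor of the same neurons, at 27.3, 30.4, 34.9 and 29.8 CPM in cortex a to d and 0.0457, 0, 0 and 0.0477 CPM in VPM a to d. Both are neuronal genes in a sorted astrocyte sample, and no VPM library reached the cortical range (adjusted p = 2.4e-10 and 1.4e-09). For *Neurod6* the ratio of pooled counts was 1219, with an exact 95% interval of 337 to 10074 for counting error.

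**Figure D3:**
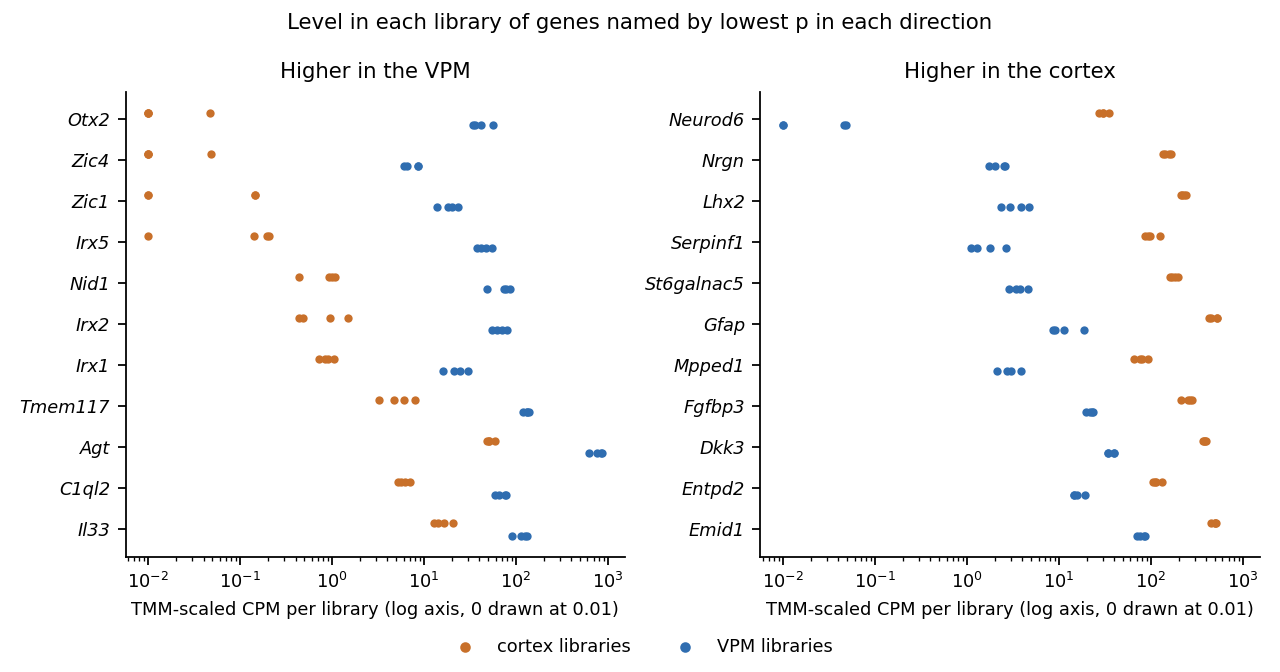
CPM on a log axis in cortex a to d and VPM a to d for genes named by lowest p in each direction. Each point is a library (a library at 0 is drawn at the left edge), and the groups do not overlap for any gene shown, which the choice of genes required.

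Regional transcription factors separated the groups. All 13 telencephalic factors tested, of 14 listed, were higher in the cortex (median log2FC -2.95 against 0.01 over all genes). The counts of this and the following lists stand beside the 10.5% of all tested genes that were higher in the cortex and the 7.34% that were higher in the VPM. Members close to absent in the cortex or the VPM passed the filter on low counts only through the other group. Their calls were thus close to fixed, and the share of a list that holds many of them is no test. *Lhx2*, a LIM homeobox factor of cortical progenitors, stood at 227, 219, 241 and 214 CPM in cortex a to d and 2.97, 2.35, 3.85 and 4.77 CPM in VPM a to d (log2FC -6.01, SE 0.19, adjusted p = 5.9e-10). Every VPM library was far below every cortex library. *Emx1*, a marker of the dorsal telencephalon, had 2 reads in the VPM libraries together, and the ratio of pooled counts was 454 (exact 95% interval 125 to 3751). Other members differed by less: *Nr2e1*, an orphan nuclear receptor of neural progenitors, stood at 134 ± 11.9 CPM in cortical and 39.6 ± 2.95 CPM in VPM libraries (SD, n = 4; log2FC -1.76, adjusted p = 2.8e-07), and *Meis2*, a homeobox factor, at 73.2 ± 11.8 CPM in cortical and 9.49 ± 3.65 CPM in VPM libraries (SD, n = 4; log2FC -2.95, adjusted p = 4.4e-06). Of the 26 listed diencephalic and midbrain factors, 19 were tested, of which 16 were higher in the VPM and 1 in the cortex (median log2FC 6.18). The median level of the tested factors in the cortex was 0.0434 CPM per kilobase of exon. Where 10 counts in every library were required, 3 were called higher in the VPM. *Lef1*, a Wnt effector that belongs to both this list and the Wnt list, was no DEG, at 12.2, 11.7, 11.4 and 12.5 CPM in cortex a to d and 19.6, 9.67, 10.2 and 20.4 CPM in VPM a to d (log2FC 0.32, adjusted p = 0.467). These regional factors mark the origin of any neural cell of the region, so their levels do not separate astrocytes from other cells of the sort. Diencephalic factors higher in the cortex came to 0 within libraries a and b.

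*Otx2* and other homeobox genes were among those of lowest p on the VPM side. The promoters of the genes named by lowest p or by the study were therefore searched for TAATCC on both strands (GGATTA on the other), the letters that OTX proteins bind. The 300 bases searched run from 250 before to 50 after the RefSeq start. Promoters on a single chromosome were left out of this search, though not of the shares of genes given below. The motif was found in the promoters of *Fgfbp3*, *Otx2* and *Tcf7l2*. They are printed because the comparison turns on these genes in regional identity and in FGF and Wnt signaling. Beside them stands the promoter of *Gfap*, which lacks the letters and for which the reporter line is named. It is the sequence of the genome, and the promoter of the transgene is not printed. Sequences are from RefSeq, GRCm38.p6, 5′ to 3′ on the strand of the gene, in lower case with the motif in capitals.

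Otx2, minus strand, chr14:48665060-48665359: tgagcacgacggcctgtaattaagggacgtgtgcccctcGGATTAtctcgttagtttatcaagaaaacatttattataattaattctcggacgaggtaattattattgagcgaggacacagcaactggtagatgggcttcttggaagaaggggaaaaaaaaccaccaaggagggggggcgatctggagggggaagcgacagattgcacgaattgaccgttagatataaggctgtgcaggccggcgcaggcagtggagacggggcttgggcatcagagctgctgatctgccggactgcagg
Fgfbp3, minus strand, chr19:36919550-36919849: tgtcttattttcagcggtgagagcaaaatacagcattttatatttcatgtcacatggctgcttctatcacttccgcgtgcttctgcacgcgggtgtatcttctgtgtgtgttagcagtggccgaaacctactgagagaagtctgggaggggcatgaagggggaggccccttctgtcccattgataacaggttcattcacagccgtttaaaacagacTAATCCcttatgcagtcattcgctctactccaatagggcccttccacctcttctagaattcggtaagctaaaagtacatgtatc
Tcf7l2, plus strand, chr19:55895071-55895370: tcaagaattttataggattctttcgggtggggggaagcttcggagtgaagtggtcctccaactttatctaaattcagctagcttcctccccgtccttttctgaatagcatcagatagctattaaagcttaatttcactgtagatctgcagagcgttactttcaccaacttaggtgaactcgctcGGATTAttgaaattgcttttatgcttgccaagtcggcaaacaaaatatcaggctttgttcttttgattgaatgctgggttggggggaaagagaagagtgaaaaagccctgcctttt
Gfap, minus strand, chr11:102897151-102897450: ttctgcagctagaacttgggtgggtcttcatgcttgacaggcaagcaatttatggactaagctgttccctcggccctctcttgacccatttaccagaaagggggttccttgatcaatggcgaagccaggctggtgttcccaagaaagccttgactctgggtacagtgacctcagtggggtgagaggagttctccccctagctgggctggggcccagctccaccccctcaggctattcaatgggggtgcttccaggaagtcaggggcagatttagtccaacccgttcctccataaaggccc

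In the printed windows, the motif started 211 bases before the RefSeq start in *Otx2*, 66 before it in *Tcf7l2* and 34 before it in *Fgfbp3*. Where a gene had several RefSeq starts, only those whose window held the letters are printed for these genes. The *Otx2* window lies within the span of the gene given above, away from its 5′ end. *Otx2* and *Tcf7l2* were higher in the VPM and *Fgfbp3* in the cortex. Of all genes with a RefSeq promoter, 8.14% held the letters in any promoter of this length, so the share is of genes and not of promoters. It was 6.8% for tested genes, 7.69% for those higher in the VPM and 7.09% for those higher in the cortex. These shares cover the genes with a RefSeq entry, 11312 of 15988 tested genes, 884 of 1174 higher in the VPM and 1284 of 1686 higher in the cortex. A match of 6 letters describes the sequence and is not evidence of binding.

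Most genes that define neurons of each region were higher in that region, in samples sorted for astrocytes. The paper reports region-specific genes that astrocytes share with neurons. It drew on in situ hybridization in green fluorescent cells, qPCR of cultured astrocytes and published single-cell data. Which cells held the transcripts below was not tested here. Of 14 cortical excitatory genes, 11 were higher in the cortex and none in the VPM (median log2FC -2.87). The count was 6 where 10 counts in every library were required. *Neurod2* and *Fezf2*, factors of cortical projection neurons, had no read in any VPM library and averaged 19.2 and 18.7 CPM in the cortex. Against a floor of 3 counts per library, averaged over the group, they were at least 130.2-fold and 127-fold higher there. *Tbr1*, which specifies deep-layer neurons, averaged 15.6 CPM across cortical libraries and 0.708 CPM across VPM libraries (adjusted p = 2.1e-07). The most abundant DEG of the list, *Mef2c*, stood at 168, 235, 152 and 173 CPM in cortex a to d and 14.04, 12.3, 18.8 and 20.6 CPM in VPM a to d (log2FC -3.47, adjusted p = 8.4e-08). *Slc17a7*, the vesicular glutamate transporter VGLUT1, was no DEG, at 21.6, 33.0, 40.8 and 49.8 CPM in cortex a to d and 24.1, 12.01, 21.3 and 49.0 CPM in VPM a to d (log2FC -0.44, adjusted p = 0.517), and passed the threshold when a library was left out (adjusted p = 0.0775 without VPM d).

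Of 16 thalamic neuron genes, 12 were higher in the VPM and 1, the kinase gene *Prkcd*, in the cortex (log2FC -2.32, adjusted p = 7.4e-07). Those higher in the VPM came to 6 where 10 counts in every library were required. *Slc17a6*, the vesicular glutamate transporter VGLUT2 of thalamic relay cells, stood at 9.44, 15.9, 6.18 and 8.80 CPM in cortex a to d and 70.9, 31.6, 55.7 and 117 CPM in VPM a to d. The VPM range lay above the cortical range and was spread widely, from VPM b to VPM d (log2FC 2.77, SE 0.39, adjusted p = 4.9e-04). *Slc6a4*, the serotonin transporter that relay neurons use in early postnatal life, stood at 0.434, 0.0961, 1.46 and 0.284 CPM in cortex a to d and 39.5, 20.3, 30.4 and 74.2 CPM in VPM a to d (log2FC 6.22, adjusted p = 3.7e-05). *Tcf7l2*, a Wnt effector of thalamic identity that some glia also express, had less spread, at 77.2, 74.9, 69.7 and 75.2 CPM in cortex a to d and 245, 186, 227 and 218 CPM in VPM a to d (log2FC 1.56, SE 0.11, adjusted p = 6.5e-07). *Rora* gave log2FC 1.13, adjusted p = 6.8e-04, *Pcp4l1* log2FC 4.01, adjusted p = 9.6e-06 and *Gbx2*, close to the floor in both groups at 0.0671 and 1.00 CPM, log2FC 3.38, adjusted p = 0.0246. *Kitl*, which encodes stem cell factor, was no DEG (log2FC 0.63, adjusted p = 0.208) but passed the threshold when a library was left out (adjusted p = 0.0267 without VPM b). For the 12 genes higher in the VPM, VPM b was lowest among the VPM libraries for 9 and VPM d highest for 9. VPM b also held the lowest and VPM d the highest sum of pan-neuronal markers in the VPM, and their part in these differences was not tested. *Gbx2* missed the threshold within libraries a and b (adjusted p = 0.381).

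Of 14 inhibitory neuron genes, 9 were tested, of which 8 were higher in the cortex and none in the VPM. Many of them were close to absent in the VPM, and 1 was called where 10 counts in every library were required. *Dlx1*, a homeobox factor of cortical interneurons, had 3 reads in the VPM libraries together against 6.09, 21.1, 17.9 and 22.9 CPM in cortex a to d (ratio of pooled counts 390, exact 95% interval 133 to 1895). *Dlx2* gave log2FC -5.62, adjusted p = 5.2e-04, *Gad2*, a GABA-synthesizing enzyme, log2FC -3.79, adjusted p = 4.1e-04 and *Sp9*, a zinc finger factor of interneuron precursors, log2FC -4.07, adjusted p = 0.0013. *Gad1*, the other GABA-synthesizing enzyme, was no DEG and stood at 17.9, 20.5, 12.4 and 18.8 CPM in cortex a to d and 24.4, 21.8, 22.1 and 22.7 CPM in VPM a to d (log2FC 0.39, adjusted p = 0.164). Among the 12 pan-neuronal markers, *Rbfox3* (NeuN) was higher in the cortex, with 37.2 ± 5.72 CPM in cortical and 11.3 ± 3.77 CPM in VPM libraries (SD, n = 4; log2FC -1.72, adjusted p = 1.8e-04). The neurofilament genes *Nefl* and *Nefm* were higher in the VPM (log2FC 2.25, adjusted p = 7.2e-04 and log2FC 2.68, adjusted p = 1.5e-04), and the other 9 were no DEGs, *Map2* among them at 288 and 305 CPM (log2FC 0.08, adjusted p = 0.658). The pan-neuronal genes higher in the cortex came to 3 without VPM d. *Sp9* missed the threshold within libraries a and b (adjusted p = 0.224).

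Astrocyte markers differed in direction. Of the 17, 8 were higher in the cortex, 1 in the VPM and 8 were no DEGs (median log2FC -0.32). *Slc1a3*, the glutamate transporter GLAST, stood at 5016, 5430.4, 4422 and 5507 CPM in cortex a to d and 1288, 1586, 1777 and 1574 CPM in VPM a to d. Every VPM library lay below every cortex library (log2FC -1.71, SE 0.12, adjusted p = 9.9e-07). *Slc1a2*, the transporter GLT-1, stood at 922, 774, 1063 and 609 CPM in cortex a to d and 264, 406, 333 and 287 CPM in VPM a to d (log2FC -1.38, SE 0.18, adjusted p = 1.4e-04). *Glul*, glutamine synthetase, stood at 337, 286, 334 and 316 CPM in cortex a to d and 54.4, 100.1, 75.5 and 86.2 CPM in VPM a to d (log2FC -2.01, SE 0.16, adjusted p = 2.6e-06). *Aldoc*, the brain aldolase, gave log2FC -0.91, adjusted p = 0.00112, and *Mlc1*, a membrane protein of astrocyte endfeet, log2FC -0.84, adjusted p = 3.4e-04. The calcium-binding protein gene *S100b* went the other way, at 172, 117, 136 and 114 CPM in cortex a to d and 276, 371, 277 and 337 CPM in VPM a to d (log2FC 1.23, SE 0.15, adjusted p = 9.9e-05). *Aqp4*, the water channel of endfeet, stood at 1447, 1688, 1493 and 1446 CPM in cortex a to d and 1459, 2036, 2119 and 1770.0 CPM in VPM a to d, *Gja1*, connexin 43, at 1617 and 1845 CPM on average and *Aldh1l1*, a folate enzyme, at 549 and 457 CPM. None of these 3 was a DEG (adjusted p = 0.173, 0.395 and 0.319), and neither was *Fgfr3* (log2FC -0.32, adjusted p = 0.135). *Aqp4* became one, higher in the VPM, at adjusted p = 0.0483 without VPM a, and *Aldh1l1*, higher in the cortex, at adjusted p = 0.094 without VPM b, and the markers higher in the VPM came to 3 without VPM a. Per kilobase of exon, *Slc1a3* was at 597 and 182 CPM per kilobase in the cortex and the VPM and *Aqp4* at 244 and 296 CPM per kilobase. *Aldoc* missed the threshold within libraries a and b (adjusted p = 0.152).

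The genes by which astrocytes clear transmitters differed as well. Of 12 genes of glutamate uptake and the glutamine cycle, 6 were higher in the cortex, with *Slc1a3*, *Slc1a2* and *Glul* among them, and 1, the glutamine transporter *Slc38a1*, in the VPM (log2FC 0.72, adjusted p = 0.00145). *Slc38a2*, its relative, was no DEG (log2FC -0.20, adjusted p = 0.401). Of the 11 tested genes of GABA and glycine uptake and breakdown, 5 were higher in the VPM and 2 in the cortex. *Slc6a11*, the astrocytic GABA transporter GAT3, stood at 407, 458, 433 and 349.9 CPM in cortex a to d and 619, 832, 1023 and 673 CPM in VPM a to d without overlap (log2FC 0.93, SE 0.15, adjusted p = 0.00101). *Slc6a9*, the glycine transporter GlyT1, stood at 146, 159, 112 and 186 CPM in cortex a to d and 227, 223, 318 and 282 CPM in VPM a to d (log2FC 0.80, adjusted p = 0.00426). *Gabrb1*, a GABA-A receptor subunit, and *Maob*, an amine oxidase, were higher in the cortex (log2FC -1.21, adjusted p = 2.7e-05 and log2FC -0.87, adjusted p = 0.00856). The glutamate genes higher in the VPM came to 3 without VPM b, and the GABA and glycine genes to 3 without VPM c. Glutamate genes higher in the VPM came to 0 within libraries a and b, and those higher in the cortex to 3 within libraries c and d. GABA and glycine genes higher in the VPM came to 1 in the model of 17 libraries, 2 within libraries a and b and 3 without cortex b and VPM d, and those higher in the cortex to 1 within libraries a and b. *Slc6a11* missed the threshold in the model of 17 libraries (adjusted p = 0.127) and *Slc38a1* and *Maob* within libraries a and b (adjusted p = 0.117 and 0.38).

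Of 14 genes of potassium, water and gap junction handling, 4 were higher in the cortex and 1 in the VPM (median log2FC 0.00). *Kcnk1*, a 2-pore potassium channel, stood at 199, 215, 216 and 198 CPM in cortex a to d and 87.9, 61.7, 84.4 and 96.7 CPM in VPM a to d, with every VPM library below every cortex library (log2FC -1.32, SE 0.13, adjusted p = 1.7e-05). Its relative *Kcnk2* gave log2FC -1.51, adjusted p = 2.5e-04. *Gjb2*, connexin 26, was higher in the VPM, at 7.02 ± 1.54 CPM in cortical and 13.4 ± 3.85 CPM in VPM libraries (SD, n = 4; log2FC 0.93, adjusted p = 0.0244). Of 15 tested receptors, 4 were higher in the VPM and 5 in the cortex. *Adra2a*, the alpha-2A adrenergic receptor, stood at 19.1, 19.3, 18.1 and 27.2 CPM in cortex a to d and 84.8, 99.6, 135 and 99.7 CPM in VPM a to d, above the cortex in every VPM library (log2FC 2.32, SE 0.17, adjusted p = 1.4e-06). *Adrb1*, the beta-1 adrenergic receptor, and *Gria4*, an AMPA receptor subunit, were higher in the VPM too (log2FC 0.94, adjusted p = 4.5e-04 and log2FC 0.95, adjusted p = 0.00167). *Grin2c*, an NMDA receptor subunit that astrocytes express, was higher in the cortex, at 11.6, 13.5, 16.3 and 14.9 CPM in cortex a to d and 0.915, 0.273, 1.01 and 1.62 CPM in VPM a to d (log2FC -3.86, SE 0.37, adjusted p = 1.4e-05). *Adora1*, the A1 adenosine receptor, was no DEG (log2FC -0.07, adjusted p = 0.767). The receptors higher in the cortex came to 2 without cortex a, cortex b or VPM d and 3 without cortex d or VPM a, and the potassium, water and gap junction genes higher in the VPM to 2 without VPM a. Potassium, water and gap junction genes higher in the VPM came to 0 in the model of 17 libraries or within libraries a and b. Receptors higher in the VPM came to 2 within libraries a and b, and those higher in the cortex to 2 in the model of 17 libraries or without cortex b and VPM d, 3 within libraries a and b and 1 within libraries c and d. *Gjb2* missed the threshold in the model of 17 libraries (adjusted p = 0.145) and *Gjb2* and *Gria4* within libraries a and b (adjusted p = 0.512 and 0.233).

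Of 19 secreted synapse organizers, 5 were higher in the VPM and 7 in the cortex. Relatives of cerebellin, *C1ql2* (above) and *Cbln2*, which link presynaptic neurexin to the postsynaptic side, were on the VPM side (log2FC 2.20, adjusted p = 7.5e-04 for *Cbln2*). *Chrdl1*, which astrocytes secrete and which drives AMPA receptor maturation, was on the cortical side. It stood at 222, 223, 186 and 227 CPM in cortex a to d and 21.0, 11.7, 23.5 and 20.7 CPM in VPM a to d, and the gap between the groups was far wider than either range (log2FC -3.48, SE 0.19, adjusted p = 7.5e-08). *Nptx2*, a pentraxin that clusters AMPA receptors, gave log2FC -1.39, adjusted p = 8.4e-06. *Sparcl1* (hevin), the most abundant of the list, stood at 6710.4, 6906, 6548 and 6207 CPM in cortex a to d and 3887, 5234, 5823 and 5148 CPM in VPM a to d, higher in the cortex by a small step (log2FC -0.39, SE 0.12, adjusted p = 0.0531), and its opponent *Sparc* was no DEG at 542 and 544 CPM (log2FC 0.00, adjusted p = 0.989). *Sparcl1* missed the threshold at adjusted p = 0.133 or 0.11 without cortex b or VPM d. Synapse organizers higher in the VPM came to 3 in the model of 17 libraries and 1 within libraries a and b, and those higher in the cortex to 4 in the model of 17 libraries, within libraries a and b or without cortex b and VPM d and 3 within libraries c and d. *Sparcl1* missed the threshold in the model of 17 libraries (adjusted p = 0.213), *Sparcl1* and *Cbln2* within libraries a and b (adjusted p = 0.188 and 0.201) and *Sparcl1* within libraries c and d (adjusted p = 0.458).

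Signaling pathways came next. Of 29 tested Wnt genes, 12 were higher in the cortex and 8 in the VPM (median log2FC -0.18). Secreted proteins and receptors of the list went both ways. *Sfrp1* and *Sfrp5*, which bind Wnt ligands, were higher in the cortex and stood at 145 ± 20.9 CPM in cortical and 26.9 ± 5.62 CPM in VPM libraries and at 16.5 ± 3.56 CPM in cortical and 0.0714 ± 0.0624 CPM in VPM libraries (SD, n = 4; adjusted p = 6.1e-07 and 8.2e-08), and *Dkk3* was described above. The receptor *Fzd2* stood at 58.0, 74.1, 77.5 and 65.7 CPM in cortex a to d and 5.95, 4.59, 8.86 and 4.87 CPM in VPM a to d, higher in the cortex with a wide gap between the groups (log2FC -3.50, SE 0.21, adjusted p = 1.8e-07). Of the same kinds, *Sfrp2* (21.4 ± 3.37 CPM in cortical and 52.4 ± 9.83 CPM in VPM libraries; SD, n = 4; log2FC 1.29, adjusted p = 1.5e-04) and the receptors *Fzd9* and *Fzd10* (log2FC 1.13, adjusted p = 5.9e-05 and log2FC 1.10, adjusted p = 1.8e-04) were higher in the VPM, and these 3 were chosen for the text after their values were seen. The ligand *Wnt7b* was no DEG, at 138 and 137 CPM (log2FC -0.01, adjusted p = 0.976), and of the effectors *Tcf7l2* was higher in the VPM and *Lef1* was no DEG. Wnt genes higher in the cortex came to 7 within libraries a and b.

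Of 12 genes of the Sonic hedgehog pathway, 8 were higher in the cortex and none in the VPM (median log2FC -0.82). *Gli1*, the transcription factor that the pathway itself induces, stood at 4.11, 6.25, 10.6 and 11.7 CPM in cortex a to d and 0.915, 0.437, 1.16 and 0.811 CPM in VPM a to d. It was lower in every VPM library than in every cortex library (log2FC -3.28, SE 0.41, adjusted p = 1.2e-04). The signal transducer *Smo* gave log2FC -0.72, adjusted p = 0.00254 and the coreceptor *Gas1* log2FC -0.86, adjusted p = 1.5e-04. *Ptch1*, the main receptor, stood at 61.9, 55.4, 85.7 and 42.3 CPM in cortex a to d and 43.7, 64.7, 41.4 and 35.0 CPM in VPM a to d; its ranges overlapped and it was no DEG (log2FC -0.41, adjusted p = 0.267) unless VPM b was left out (adjusted p = 0.0627 without VPM b). In the FGF list, 3 of 17 tested genes were higher in the cortex and 2 in the VPM. The receptors *Fgfr1* and *Fgfr2* were higher in the cortex (log2FC -0.83, adjusted p = 0.00123 and log2FC -0.94, adjusted p = 4.9e-04) beside *Fgfbp3*, and the ligand *Fgf9* was higher in the VPM, at 1.65, 1.73, 2.04 and 1.99 CPM in cortex a to d and 10.6, 5.02, 7.32 and 12.9 CPM in VPM a to d (log2FC 2.28, adjusted p = 2.5e-04). The FGF genes higher in the VPM came to 1 without cortex b, cortex c, cortex d, VPM a or VPM c. Sonic hedgehog genes higher in the cortex came to 5 in the model of 17 libraries or without cortex b and VPM d and 4 within libraries a and b. FGF genes higher in the VPM came to 1 in the model of 17 libraries, within libraries a and b, within libraries c and d or without cortex b and VPM d. *Smo* missed the threshold in the model of 17 libraries (adjusted p = 0.107) and within libraries a and b (adjusted p = 0.163).

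Of 16 Notch genes, 7 were higher in the cortex and 2 in the VPM (median log2FC -0.64). The targets *Heyl* and *Nrarp* stood at 33.9 ± 5.13 CPM in cortical and 5.68 ± 1.20 CPM in VPM libraries and at 110.2 ± 8.32 CPM in cortical and 44.4 ± 5.12 CPM in VPM libraries (SD, n = 4; log2FC -2.57, adjusted p = 1.2e-06 and log2FC -1.31, adjusted p = 6.2e-06). Among the genes higher in the VPM was *Dll3*, a ligand that acts within the cell (log2FC 0.91, adjusted p = 3.0e-04). *Hes1*, another target, was no DEG and varied within the groups, at 249, 87.5, 139 and 94.2 CPM in cortex a to d and 140.5, 279.8, 125 and 117 CPM in VPM a to d (log2FC 0.21, adjusted p = 0.774). Of 22 BMP and TGF-beta genes, 8 were higher in the cortex and 1 in the VPM. *Id4*, an inhibitor of basic helix-loop-helix factors, stood at 277, 283, 338 and 303 CPM in cortex a to d and 70.2, 112, 72.3 and 71.3 CPM in VPM a to d (log2FC -1.88, SE 0.15, adjusted p = 3.7e-06). The ligand *Tgfb2* gave log2FC -1.69, adjusted p = 5.5e-06, the receptor *Bmpr1a* log2FC -0.96, adjusted p = 1.4e-04 and the secreted protein *Fstl1* log2FC -1.22, adjusted p = 3.2e-04. *Id2*, a relative of *Id4*, was no DEG (log2FC 0.33, adjusted p = 0.439). The BMP and TGF-beta genes higher in the VPM came to 0 without cortex c. Notch genes higher in the cortex came to 3 within libraries a and b and 4 without cortex b and VPM d. BMP and TGF-beta genes higher in the VPM came to 0 within libraries a and b or without cortex b and VPM d, and those higher in the cortex to 4 in the model of 17 libraries, within libraries a and b or without cortex b and VPM d.

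Of 19 tested genes of retinoic acid and thyroid hormone, 5 were higher in the cortex and 2 in the VPM. *Slco1c1*, a thyroxine transporter, stood at 839.6, 881, 833 and 829 CPM in cortex a to d and 237, 251, 306 and 278 CPM in VPM a to d, with every VPM library below every cortex library (log2FC -1.66, SE 0.10, adjusted p = 3.2e-07). *Dio2*, the deiodinase with which astrocytes make the active hormone, stood at 113, 79.3, 107 and 72.0 CPM in cortex a to d and 15.9, 27.7, 22.1 and 25.6 CPM in VPM a to d (log2FC -2.02, SE 0.19, adjusted p = 1.3e-05). The receptor gene *Thra* was no DEG, at 284 and 285 CPM (log2FC 0.00, adjusted p = 0.983). *Aldh1a1*, which makes retinoic acid, was higher in the VPM, at 15.3, 12.7, 11.7 and 9.46 CPM in cortex a to d and 22.4, 42.1, 36.1 and 34.3 CPM in VPM a to d (log2FC 1.45, adjusted p = 3.5e-04). The genes higher in the VPM came to 4 without cortex d. Genes of the list higher in the VPM came to 0 within libraries a and b and 1 without cortex b and VPM d, and those higher in the cortex to 3 within libraries a and b. *Aldh1a1* missed the threshold in the model of 17 libraries (adjusted p = 0.221) and within libraries a and b (adjusted p = 0.128).

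Of 29 axon guidance genes, 10 were higher in the cortex and 7 in the VPM. *Efnb2*, an ephrin ligand, stood at 16.1, 19.7, 23.2 and 36.6 CPM in cortex a to d and 4.57, 5.08, 5.73 and 4.39 CPM in VPM a to d (log2FC -2.27, adjusted p = 4.5e-05), and *Sema6a*, a transmembrane semaphorin, was higher in the cortex by less (log2FC -0.62, adjusted p = 4.8e-04). The receptors *Robo1*, for Slit proteins, and *Nrp1*, for class 3 semaphorins, were higher in the VPM (log2FC 1.07, adjusted p = 2.4e-04 and log2FC 0.78, adjusted p = 3.2e-04). *Sema6d*, the most abundant gene that was no DEG, gave log2FC -0.14, adjusted p = 0.509. Axon guidance genes higher in the VPM came to 2 within libraries c and d, and those higher in the cortex to 5 within libraries a and b.

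Of 23 matrix genes, 14 were higher in the cortex and 2 in the VPM (median log2FC -0.41). *Tnc*, tenascin C of immature astrocytes, stood at 211, 277, 347 and 351 CPM in cortex a to d and 31.4, 54.6, 41.0 and 34.4 CPM in VPM a to d. The highest VPM library was well below the lowest cortex library (log2FC -2.88, SE 0.20, adjusted p = 8.2e-07). *Fbln2*, fibulin 2, stood at 68.1 ± 21.6 CPM in cortical and 3.86 ± 0.804 CPM in VPM libraries (SD, n = 4; log2FC -4.14, adjusted p = 3.3e-07), and *Hapln1*, which links hyaluronan to proteoglycans, at 117 ± 5.63 CPM in cortical and 43.8 ± 5.43 CPM in VPM libraries (SD, n = 4; log2FC -1.42, adjusted p = 2.3e-06). *Itih3*, a hyaluronan-binding protein, gave log2FC -1.19, adjusted p = 2.0e-05, and *Bcan*, brevican, the most abundant matrix gene, log2FC -0.34, adjusted p = 0.05. *Timp4*, an inhibitor of matrix metalloproteinases, was higher in the VPM, at 266, 231, 228 and 191 CPM in cortex a to d and 349, 429, 365 and 373 CPM in VPM a to d (log2FC 0.73, adjusted p = 9.0e-04), and *Spon1*, a matrix protein that guides axons, was no DEG (log2FC 0.23, adjusted p = 0.326). *Bcan* missed the threshold at adjusted p = 0.131, 0.132 or 0.108 without cortex d, VPM a or VPM d and *Spon1* passed it at adjusted p = 0.0859 without cortex d, and the matrix genes higher in the VPM came to 4 without cortex c. Matrix genes higher in the cortex came to 8 in the model of 17 libraries or within libraries c and d and 7 within libraries a and b. *Bcan* missed the threshold in the model of 17 libraries (adjusted p = 0.197), within libraries a and b (adjusted p = 0.25) and within libraries c and d (adjusted p = 0.327).

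In metabolism, 8 of 20 genes of cholesterol synthesis were higher in the cortex and none in the VPM, all by small steps. *Lss*, lanosterol synthase, averaged 179 ± 11.5 CPM in cortical and 129 ± 12.6 CPM in VPM libraries (SD, n = 4; log2FC -0.47, adjusted p = 0.00723), *Fdft1*, squalene synthase, gave log2FC -0.43, adjusted p = 0.00958, *Sc5d* log2FC -0.41, adjusted p = 0.0263 and *Srebf2*, the factor that drives the pathway, log2FC -0.47, adjusted p = 0.026. *Cyp51*, the most abundant that was no DEG, gave log2FC -0.10, adjusted p = 0.603. The cholesterol genes higher in the cortex came to 4 without cortex b or VPM a. Of 20 genes of glycolysis, glycogen and lactate, 4 were higher in the VPM and 3 in the cortex. The phosphofructokinase genes *Pfkp* and *Pfkl* were higher in the VPM (log2FC 0.57, adjusted p = 0.00947 and log2FC 0.40, adjusted p = 0.0196) and *Pdk4*, which holds back pyruvate oxidation, in the cortex, at 77.4, 58.6, 50.7 and 57.9 CPM in cortex a to d and 14.3, 35.2, 15.1 and 14.8 CPM in VPM a to d (log2FC -1.63, adjusted p = 0.00115). *Ldha*, lactate dehydrogenase A, was no DEG (log2FC 0.03, adjusted p = 0.889). The glycolysis genes higher in the VPM came to 2 without cortex b or VPM d. Cholesterol genes higher in the VPM came to 1 within libraries c and d, and those higher in the cortex to 3 in the model of 17 libraries, 2 within libraries a and b or without cortex b and VPM d and 1 within libraries c and d. Glycolysis genes higher in the VPM came to 1 in the model of 17 libraries, within libraries c and d or without cortex b and VPM d and 0 within libraries a and b, and those higher in the cortex to 0 within libraries a and b. *Srebf2*, *Pfkp* and *Pfkl* missed the threshold in the model of 17 libraries (adjusted p = 0.212, 0.123 and 0.113), *Srebf2*, *Pfkp*, *Pfkl*, *Sc5d* and *Pdk4* within libraries a and b (adjusted p = 0.45, 0.324, 0.255, 0.115 and 0.131) and *Pfkl*, *Sc5d*, *Lss* and *Fdft1* within libraries c and d (adjusted p = 0.201, 0.468, 0.309 and 0.295).

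Nearly all genes of the cell cycle were higher in the VPM, 17 of 18, and none was higher in the cortex (median log2FC 0.56). The steps were small. *Rrm2*, a subunit of ribonucleotide reductase, stood at 143, 164, 120.2 and 134 CPM in cortex a to d and 244, 243, 255 and 216 CPM in VPM a to d (log2FC 0.77, SE 0.11, adjusted p = 3.8e-04). *Top2a*, a topoisomerase of dividing cells, stood at 109, 138, 109 and 118 CPM in cortex a to d and 189.8, 166, 208 and 176 CPM in VPM a to d (log2FC 0.64, SE 0.11, adjusted p = 0.0017). In both genes all VPM libraries lay above all cortex libraries. *Birc5*, survivin, and *Cdk1*, the mitotic kinase, gave log2FC 0.68, adjusted p = 0.00214 and log2FC 0.59, adjusted p = 0.00355, and *Mcm2*, a replicative helicase subunit, was no DEG (log2FC 0.25, adjusted p = 0.24). VPM c was the highest VPM library for 14 of the 17. The list held 12 DEGs without VPM c and 13 without VPM a. Cell cycle genes higher in the VPM came to 10 in the model of 17 libraries, 1 within libraries a and b and 8 within libraries c and d. *Top2a*, *Birc5* and *Cdk1* missed the threshold within libraries a and b (adjusted p = 0.166, 0.101 and 0.111).

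Of 14 markers of the oligodendrocyte lineage, 6 were higher in the VPM and 1 in the cortex (median log2FC 0.58). The genes higher in the VPM belong to cells that form myelin or are about to. *Mbp*, myelin basic protein, stood at 461, 595, 447 and 723 CPM in cortex a to d and 1913, 537, 1049 and 1459 CPM in VPM a to d. VPM b lay within the cortical range and the other VPM libraries above it (log2FC 1.16, SE 0.31, adjusted p = 0.0324). *Bcas1*, of new oligodendrocytes, did not overlap, at 506, 512, 422 and 509 CPM in cortex a to d and 1255, 798, 985 and 1071 CPM in VPM a to d (log2FC 1.08, SE 0.13, adjusted p = 1.2e-04), and *Enpp6* of the same stage gave log2FC 1.08, adjusted p = 0.0226. *Pdgfra*, the receptor of oligodendrocyte precursors, was higher in the cortex, at 1032, 1113, 1065 and 1261 CPM in cortex a to d and 945, 766, 976 and 773 CPM in VPM a to d (log2FC -0.37, SE 0.11, adjusted p = 0.0506), and *Olig1*, of the whole lineage, was no DEG, at 2966 and 3514 CPM (log2FC 0.24, adjusted p = 0.126). For all 6 genes higher in the VPM, VPM a was the highest and VPM b the lowest VPM library. The genes higher in the VPM came to 2 without VPM a, 3 without cortex a, cortex c or VPM c and 11 without VPM b, and those higher in the cortex to 0 without cortex b, cortex d, VPM b or VPM d and 2 without cortex a. *Mbp* gave adjusted p = 0.103 without VPM a, *Pdgfra* adjusted p = 0.108, 0.124, 0.102 or 0.152 without cortex b, cortex d, VPM b or VPM d and *Olig1* adjusted p = 0.0786 without VPM b. The part of oligodendrocyte lineage cells in other differences was not tested. Oligodendrocyte lineage markers higher in the VPM came to 3 in the model of 17 libraries or within libraries c and d, 1 within libraries a and b and 2 without cortex b and VPM d, and those higher in the cortex to 0 in the model of 17 libraries, within libraries a and b or without cortex b and VPM d. *Enpp6* and *Pdgfra* missed the threshold in the model of 17 libraries (adjusted p = 0.169 and 0.159), *Enpp6*, *Pdgfra* and *Mbp* within libraries a and b (adjusted p = 0.364, 0.366 and 0.336) and *Pdgfra* within libraries c and d (adjusted p = 0.234).

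Vascular markers gave 1 gene higher in the VPM and 2 in the cortex of 7 tested. *Pdgfrb*, of pericytes, stood at 24.6, 28.1, 45.4 and 51.0 CPM in cortex a to d and 0.960, 1.37, 2.84 and 0.811 CPM in VPM a to d (log2FC -4.64, SE 0.38, adjusted p = 3.4e-06) and *Rgs5*, of the same cells, at 10.9 ± 1.64 CPM in cortical and 3.27 ± 1.99 CPM in VPM libraries (SD, n = 4; log2FC -1.73, adjusted p = 0.0161). *Flt1*, a VEGF receptor of endothelium, was higher in the VPM but near the floor, at 0.268, 1.11, 0.0973 and 0.189 CPM in cortex a to d and 1.14, 1.20, 1.93 and 4.53 CPM in VPM a to d, and VPM a stood close to cortex b (log2FC 2.42, adjusted p = 0.043). *Vtn*, vitronectin of pericytes, was no DEG (log2FC 0.30, adjusted p = 0.872). *Flt1* missed the threshold at adjusted p = 0.105, 0.108, 0.115 or 0.18 without cortex a, cortex c, cortex d or VPM d. Of 5 tested ependymal markers, 4 were higher in the cortex. *Foxj1*, the factor that drives motile cilia, stood at 2.75, 9.23, 12.8 and 42.1 CPM in cortex a to d and 0.732, 1.15, 3.23 and 1.53 CPM in VPM a to d, from the lowest value in cortex a to the highest in cortex d (log2FC -3.32, adjusted p = 0.0126). *Tekt1*, *Rsph1* and *Dynlrb2*, of the cilium itself, gave adjusted p = 0.00223, 0.0184 and 0.0172, with cortex a lowest and cortex d highest in the cortex for each. *Rarres2* was no DEG (log2FC -0.63, adjusted p = 0.198). The ependymal markers higher in the cortex came to 7 without cortex a, VPM a, VPM c or VPM d, where more of them passed the filter on low counts or the test, and *Rsph1* gave adjusted p = 0.112 without VPM b. None of the 10 microglial markers was a DEG in edgeR's quasi-likelihood test. At an unadjusted p under 0.05, 2 of them were higher in the cortex, and DESeq2 called 1 there. Vascular markers higher in the VPM came to 0 within libraries a and b, and those higher in the cortex to 1 in the model of 17 libraries. Ependymal markers higher in the cortex came to 0 within libraries a and b and 7 within libraries c and d. Microglial markers higher in the cortex came to 1 without cortex b and VPM d. *Rgs5* and *Flt1* missed the threshold in the model of 17 libraries (adjusted p = 0.406 and 0.429) and *Flt1*, *Foxj1*, *Tekt1* and *Rsph1* within libraries a and b (adjusted p = 0.724, 0.114, 0.308 and 0.504).

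Of 12 tested reactive astrocyte genes, 7 were higher in the cortex and 3 in the VPM (median log2FC -0.52). Beside *Gfap*, the intermediate filament gene *Nes* (nestin) gave log2FC -1.19, adjusted p = 4.5e-05, the hyaluronan receptor *Cd44* log2FC -1.61, adjusted p = 1.1e-04 and the complement gene *C4b* log2FC -4.39, adjusted p = 6.0e-06. *C4b* was close to the floor in the VPM, at 0.223 to 0.300 CPM against 3.69 to 7.27 CPM in the cortex (scaled over all 17 libraries). These genes were named for their low p, and the largest log2FC of the list toward the VPM was 1.79. *Emp1* was no DEG (log2FC 0.03, adjusted p = 0.939). Immediate early and stress genes varied widely within the groups, and their median log2FC was -0.49 against 0.01 over all genes. *Fos*, induced within minutes of stimulation or handling, stood at 1497, 195, 635 and 355 CPM in cortex a to d and 706, 1384, 205 and 457 CPM in VPM a to d (log2FC 0.04, adjusted p = 0.984). Of the 16 genes, 13 were highest in cortex a and 13 lowest in cortex b among the cortex libraries, and 12 were highest in VPM b and 12 lowest in VPM c among the VPM libraries. *Arc* alone was a DEG, higher in the cortex at 13.0, 2.98, 9.49 and 7.76 CPM in cortex a to d and 3.29, 3.11, 2.65 and 3.96 CPM in VPM a to d, with overlapping ranges (log2FC -1.36, adjusted p = 0.0277), and the genes higher in the cortex came to 2 without cortex b and 3 without VPM b. Immediate early and stress genes higher in the cortex came to 0 in the model of 17 libraries or within libraries a and b and 4 within libraries c and d. *Arc* missed the threshold in the model of 17 libraries (adjusted p = 0.349) and within libraries a and b (adjusted p = 0.4).

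Of 16 neuropeptide and precursor genes, 6 were higher in the VPM and 5 in the cortex. *Agt* apart, *Vgf*, a granule protein of neurons, gave log2FC 4.35, adjusted p = 8.3e-05, *Tac1*, the substance P precursor, log2FC 1.88, adjusted p = 2.6e-05 and *Cck*, cholecystokinin, log2FC 3.02, adjusted p = 1.1e-04. *Npy*, neuropeptide Y of interneurons, was higher in the cortex (log2FC -3.58, adjusted p = 1.5e-04). *Pdyn*, prodynorphin, had no read in the VPM and averaged 4.42 CPM in the cortex, at least 30.1-fold higher against the floor of 3 counts. *Scg5*, a granule chaperone, was no DEG (log2FC -0.14, adjusted p = 0.461).

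Where a list above had no DEG in a direction in edgeR's quasi-likelihood test, an unadjusted p under 0.05 gave 1 cortical excitatory and 1 inhibitory neuron gene higher in the VPM. It gave 0 in that direction for the telencephalic factors, Sonic hedgehog, cholesterol, ependymal and immediate early genes and 0 cell cycle genes higher in the cortex. DESeq2 called 0 genes in each of these directions.

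**Figure D4:**
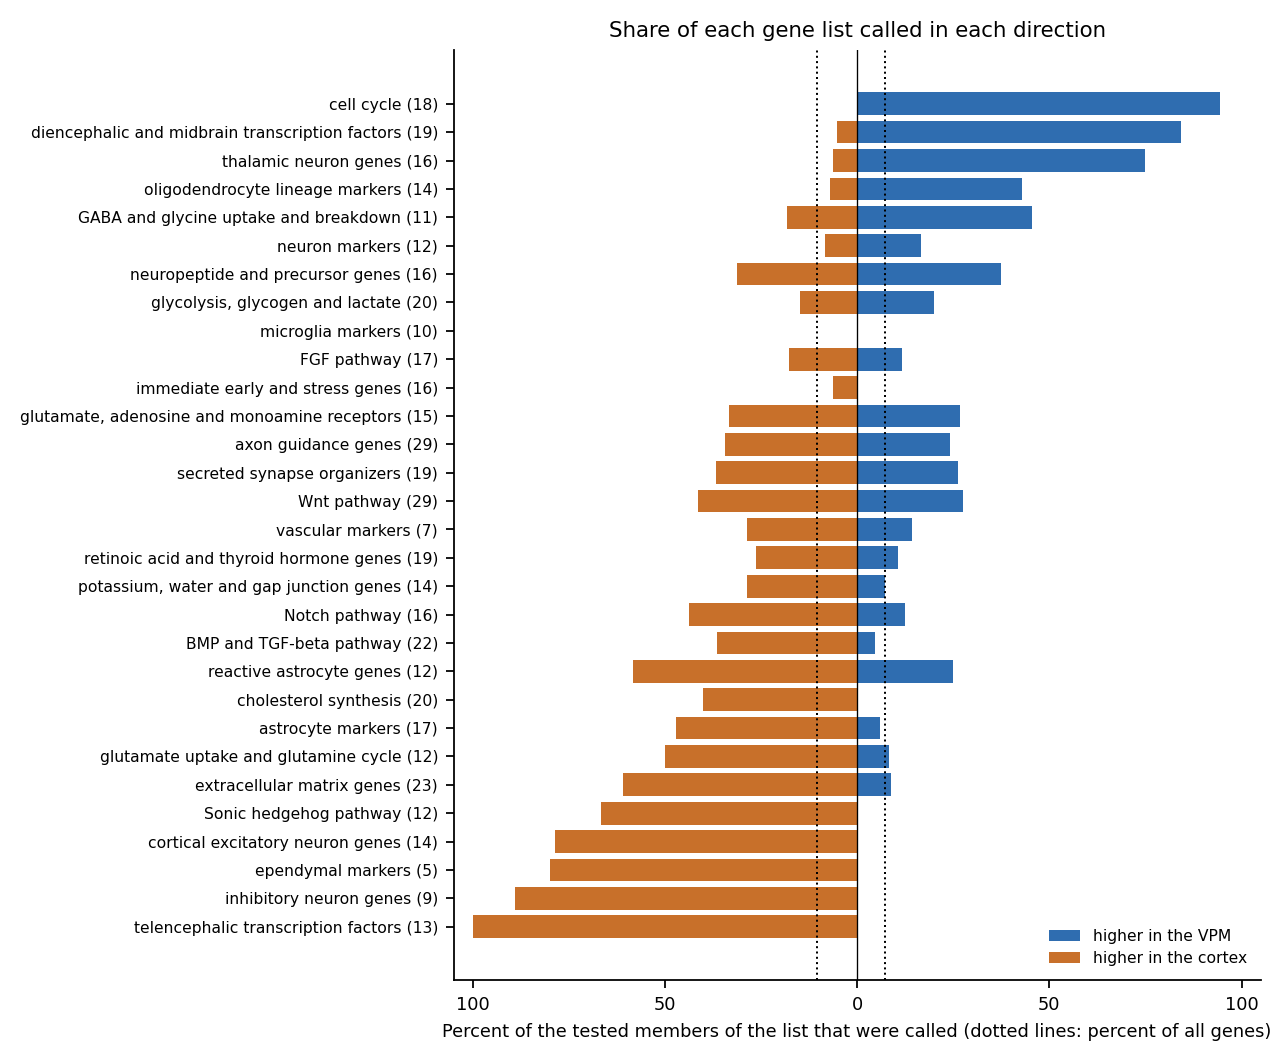
Percent of the tested members of each gene list that were DEGs higher in the cortex (bars to the left) and in the VPM (bars to the right), with the number tested beside each name and dotted lines at the percent of all tested genes, 10.5 and 7.34. The bar of the telencephalic factors spans the whole cortical side, and the longest bars on the VPM side are those of cell cycle genes, diencephalic factors and thalamic neuron genes. Lists of regional factors and neuron genes hold members close to absent in a group, which passed the filter on low counts through the other group.

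By the size of the difference in mean CPM, 6 DEGs were named in each direction. On the VPM side, beside *Agt*, *Mbp* and *Bcas1*, they were *Pla2g7*, a lipase that degrades platelet-activating factor, at 845, 1087, 844 and 812 CPM in cortex a to d and 1650.2, 2101, 2397 and 1968 CPM in VPM a to d (log2FC 1.18, SE 0.13, adjusted p = 5.9e-05), *Serpine2*, a protease inhibitor, at 2900.1 ± 469 CPM in cortical and 4217 ± 165 CPM in VPM libraries (SD, n = 4; log2FC 0.54, adjusted p = 0.00851), and *Ckb*, brain creatine kinase (log2FC 0.38, adjusted p = 0.05, and adjusted p = 0.125, 0.124 or 0.129 without cortex b, cortex d or VPM d). On the cortical side, beside *Slc1a3*, *Sparcl1* and *Bcan*, they were *Tspan7*, a tetraspanin, at 3234, 2961, 2959.8 and 2442 CPM in cortex a to d and 759.8, 745, 791 and 793 CPM in VPM a to d (log2FC -1.91, SE 0.11, adjusted p = 1.2e-07), *Mfge8*, a bridge between dying cells and phagocytes, at 1941, 2029, 2019 and 1874 CPM in cortex a to d and 596, 769, 780.4 and 797 CPM in VPM a to d (log2FC -1.42, SE 0.11, adjusted p = 2.2e-06), and *Gpm6a*, a membrane glycoprotein (log2FC -0.55, adjusted p = 0.0094). *Gpm6a* missed the threshold in the model of 17 libraries (adjusted p = 0.291), *Ckb* and *Serpine2* within libraries a and b (adjusted p = 0.501 and 0.319) and *Gpm6a* and *Ckb* within libraries c and d (adjusted p = 0.353 and 0.139).

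To see which genes set the VPM apart from all other regions measured, its libraries were also compared with the dLG and the MGv in a model of all 17 libraries and 17856 tested genes. Against the dLG, 1029 genes (5.76%) were higher in the VPM and 1416 (7.93%) lower. Against the MGv, 1322 (7.40%) were higher and 1424 (7.97%) lower. These comparisons share the VPM libraries with each other and with the cortical one, and their levels are CPM scaled over all 17 libraries. *Adra2a*, with a mean of 108 CPM in the VPM, was at 23.8 to 31.5 CPM in the dLG libraries and 34.4 to 40.5 CPM in the MGv libraries (log2FC 2.06, adjusted p = 4.6e-07 and log2FC 1.52, adjusted p = 2.8e-05). *Timp4* ranged over 188 to 286 CPM in the dLG and 189.6 to 263 CPM in the MGv, all below the VPM (log2FC 0.67, adjusted p = 0.00871 and log2FC 0.84, adjusted p = 0.0019). *Prss35*, an inactive serine protease, *Hsd11b1*, which regenerates active glucocorticoid, the zinc transporter *Slc39a12* and *Tstd3* were the other 4 of the 6 genes highest in the VPM that were chosen by their p. *Prss35* averaged 145 CPM in the VPM against 43.8, 79.3 and 63.7 CPM in cortex, dLG and MGv. In the same order, *Hsd11b1* averaged 100.5 CPM against 35.1, 52.3 and 35.5, *Slc39a12* 517 against 294, 258 and 252, and *Tstd3* 39.0 against 23.7, 24.1 and 19.6 CPM. Against the cortex, *Tstd3* missed the threshold within libraries c and d (adjusted p = 0.107).

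Among genes lower in the VPM than elsewhere, *Tnc* ranged over 183 to 269 CPM in the dLG and 145 to 599 CPM in the MGv, beside 41.7 CPM on average in the VPM (log2FC -2.41, adjusted p = 1.5e-04 and log2FC -3.26, adjusted p = 7.0e-06). *Crip2* and *Efhd2*, a LIM domain and a calcium-binding protein, *Trim47*, a ubiquitin ligase, *Lama4*, a laminin chain, and *Igsf3*, an immunoglobulin family membrane protein, were the other 5 of 6 chosen in the same way. *Crip2* averaged 24.8 CPM in the VPM against 179.6 in the cortex, 77.9 in the dLG and 113 in the MGv. *Efhd2* averaged 54.7 CPM against 187, 126 and 180.4, *Trim47* 11.2 against 71.1, 44.3 and 73.1, *Lama4* 6.29 against 16.8, 19.3 and 20.7, and *Igsf3* 6.95 against 21.7, 32.9 and 21.1 CPM, in the same order.

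Several genes of the lists above showed the same order. *Gfap* was far more variable in the other nuclei than in the VPM or the cortex, with 78.2 to 1308 CPM in the dLG and 36.1 to 5519 CPM in the MGv, each above the highest VPM library (log2FC -5.44, adjusted p = 0.013 and log2FC -7.24, adjusted p = 0.00314). *Gli1* averaged 6.71 CPM in the dLG and 10.9 CPM in the MGv, near the cortical mean of 8.35 CPM and above the VPM mean of 0.860 CPM (log2FC -2.95, adjusted p = 0.00296 and log2FC -3.65, adjusted p = 4.7e-04). *Fbln2*, *Tgfb2*, *Id4*, *Fgfbp3* and *Dkk3* were lower in the VPM than in both other nuclei as well (adjusted p = 0.00238, 0.00146, 0.0025, 0.00235 and 0.00238 against the dLG and 9.4e-05, 1.1e-04, 0.00767, 9.4e-05 and 0.016 against the MGv). *Agt*, *C1ql2*, *Irx2* and *Tmem117*, by contrast, gave no difference past the threshold between the VPM and either nucleus, and neither did *Slc1a3*, *Slc1a2*, *Glul* or *Chrdl1*. For *Slc1a3* the means were 1609 CPM in the VPM, 1494 CPM in the dLG and 1679 CPM in the MGv (log2FC 0.11, adjusted p = 0.652 and log2FC -0.06, adjusted p = 0.83). *Otx2* was lower in the VPM than in both nuclei (log2FC -0.83, adjusted p = 0.013 and log2FC -0.75, adjusted p = 0.0219), and *Zic4* stood below the dLG (log2FC -2.14, adjusted p = 0.00314) and above the MGv (log2FC 2.37, adjusted p = 0.00183). *Dio2* and *Hapln1* were lower in the VPM than in the cortex but higher than in both nuclei, *Dio2* at 6.52 and 4.70 CPM (log2FC 1.85, adjusted p = 6.1e-04 and log2FC 2.32, adjusted p = 1.4e-04) and *Hapln1* at 14.4 and 8.76 CPM (log2FC 1.66, adjusted p = 4.0e-04 and log2FC 2.37, adjusted p = 1.9e-05).

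**Figure D5:**
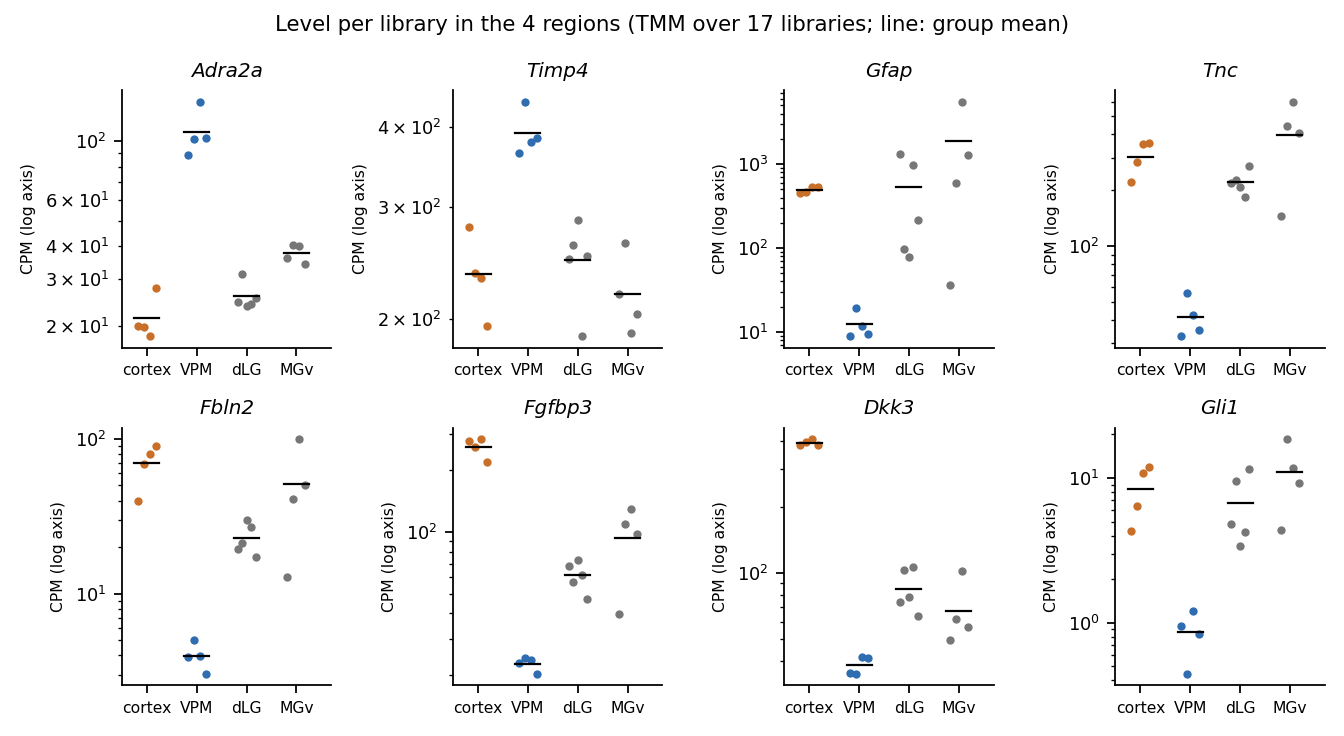
CPM on a log axis in each of the 17 libraries by region (cortex, VPM, dLG, MGv), scaled over all 17, with a line at each group mean. *Adra2a* and *Timp4* are highest in the 4 VPM libraries, while *Gfap*, *Tnc*, *Fbln2*, *Fgfbp3*, *Dkk3* and *Gli1* are lowest there, and *Gfap* spans 36.1 to 5519 CPM in the MGv.

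The study itself named 25 genes in describing the cells, regions and nuclei of the series, of which most have been described. It named *Sp9* and *Hs6st2* for the dLG and *Crabp2* and *Tshz1* for the MGv. The comparison of cortex and VPM does not bear on what it states of these genes. It drew many of them from comparisons that include these samples, so their direction is not independent evidence. Among the rest, *Baiap2*, a scaffold of dendritic spines, and *Kcnh3*, a potassium channel, were higher in the cortex (log2FC -1.52, adjusted p = 7.4e-06 and log2FC -4.57, adjusted p = 2.3e-04) and *Pou2f2*, a POU factor, in the VPM (log2FC 0.81, adjusted p = 0.0518, and adjusted p = 0.123, 0.119, 0.119 or 0.146 without cortex b, cortex c, VPM a or VPM d). *Tshz1* and *Hs6st2* were no DEGs (log2FC -0.05, adjusted p = 0.855 and log2FC -0.11, adjusted p = 0.83), and *Crabp2*, a retinoic acid binding protein, was not tested for its low counts, at 0.207, 0.144, 0.341 and 0.284 CPM in cortex a to d and 0.137, 0.437, 0.241 and 0.620 CPM in VPM a to d. *Pou2f2* missed the threshold within libraries a and b (adjusted p = 0.589) and within libraries c and d (adjusted p = 0.122).

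The strand setting of the count files is not given in the sources used here, so reads of a gene that overlaps another cannot be told apart from those of its neighbor. Over 10% of the exonic length overlaps another gene for *Nrarp* (79.4%), *Gbx2* (43.5%), *Rarres2* (33.6%), *Nefl* (32.8%), *Slc6a9* (30.2%), *Entpd2* (28.8%), *Tstd3* (21.0%), *Adora1* (20.1%), *Gas1* (19.9%), *Nefm* (19.2%), *Fdft1* (18.3%), *Fgfr3* (13.9%), *Lef1* (13.7%), *Aldh1l1* (13.4%), *Bcas1* (12.6%), *Xist* (12.6%), *Kcnk2* (12.2%) and *Pla2g7* (10.98%), and their values are uncertain to that extent.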

How the data were processed

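The authors trimmed adapters, mapped 50-base single reads to GRCm38 with STAR 2.7.0d, counted them on Ensembl 95 genes with featureCounts of Subread 1.6.4 and deposited raw counts per gene and library, without normalization. The versions are from the submitters' processing notes. Libraries were made with the SMARTer Ultra Low v4 kit. The files held 26556 genes, of which 26548 identifiers were matched to GRCm38 symbols and positions.

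Genes were filtered by filterByExpr, scaled by TMM and tested with edgeR 4.0.16 (R 4.3.3) in a robust quasi-likelihood fit of the 8 libraries in 2 groups, with the Benjamini-Hochberg adjustment over 15993 genes. The SE was derived from the log2FC and its F statistic. SDs are over the 4 libraries of a group. Marker sums were compared by an exact two-sided permutation test in SciPy 1.17.1. Intervals and the floor of 3 counts cover counting error only. The test was checked on simulated counts before use.

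Genes named are the 12 of lowest p in each direction among DEGs with an absolute log2FC above 1 and no overlap, the 4 DEGs of lowest p and the most abundant other member of each of 31 gene lists (502 genes), the 25 genes named by the study, the 6 DEGs with the largest difference of mean CPM in each direction and the 6 in each direction that differed from the cortex and both other nuclei. Some genes that this rule names are not reported here. The comparison, the lists and the rule were chosen with earlier results of these data known. Alternatives were DESeq2 1.42.0, its size factors, other count filters, a model of all 17 libraries, the number series of the libraries, a replicate block, each library left out, cortex a thinned and a stricter threshold. A fit without cortex b and VPM d was chosen after seeing the data.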

Additional observations from a re-analysis of the deposited data

Results flagged for a closer look

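In 12 of 358 groups of 4 libraries examined, 1 library stood apart from the other 3 by Dixon's criterion, which chance meets in about 1 in 20 groups. Those high in their group were *Adra2a* in cortex d at 27.2 CPM, *Flt1* in cortex b at 1.11 CPM, *Gbx2* in cortex a at 0.268 CPM, *Lss* in cortex a at 196 CPM and *Pla2g7* in cortex b at 1087 CPM. In VPM b, *Hes1* was high at 279.8 CPM, *Id4* at 112 CPM and *Pdk4* at 35.2 CPM. Those low in their group were *Bcas1* in cortex c at 422 CPM, *Chrdl1* in cortex c at 186 CPM, *Trim47* in cortex b at 46.2 CPM and *Mfge8* in VPM a at 596 CPM. With that library included, the groups did not overlap for any of these genes except *Hes1*.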

How the results depend on the processing

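The main test gave 1174 genes higher in the VPM and 1687 in the cortex. DESeq2 gave 1526 and 2152, and a model of all 17 libraries 636 and 971. The library numbers fall into 2 series, each with 2 libraries per group. Within the series of the libraries lettered a and b the counts were 284 and 665, and within that of those lettered c and d they were 520 and 1088, with fewer libraries in each fit. Without cortex b and VPM d, which lack Y-linked counts, they were 650 and 1116. That fit took the call from 11 named DEGs. These were *Bcan*, *Ckb*, *Gbx2*, *Gpm6a*, *Mbp* and *Pdgfra* (adjusted p = 0.189, 0.266, 0.149, 0.116, 0.117 and 0.267). The others were *Pfkl*, *Pou2f2*, *Sc5d*, *Sparcl1* and *Srebf2* (adjusted p = 0.208, 0.274, 0.156, 0.238 and 0.144). Leaving out each library in turn gave 826 (without VPM a) to 1286 (without VPM b) genes higher in the VPM and 1343 (without VPM a) to 1829 (without VPM b) in the cortex. The other alternatives kept both counts within 1.5 times the main ones. The letters a to d are shared between the groups, but deviations of libraries of the same letter correlated by -0.17 to 0.05, with 0 of 4 above 0.1, so they were not taken as pairs. With the replicate block by letter the counts were 916 and 1397. It took the call from *Bcan*, *Ckb*, *Pdgfra* and *Sparcl1*. The 31 lists together held 263 DEGs, and 155 within the series of a and b. The vascular sum as a mean of log2(CPM + 0.5) differed by -0.40 (exact permutation p = 0.171) in place of -2.04. Against the dLG, 2445 genes differed from the VPM, and 1538 with the number series as a covariate. Against the MGv, 2746 differed. Of 146 named DEGs, 89 were tested under all 20 alternatives and called in each, 37 lost the call in at least 1, 31 of them within the series of a and b and 15 in the model of 17 libraries, and none reversed. Where 10 counts in every library were required, 24 of the 146 were not tested, genes near 0 in one group among them. By that filter the list counts fell to 3 diencephalic factors and 8 telencephalic factors, to 6 thalamic and 6 cortical excitatory neuron genes and to 1 inhibitory neuron gene, since fewer genes were tested. The cause was not tested for any of these. The depth of 18213687 to 50366363 counts limits genes near 0.0596 to 0.165 CPM, which 3 counts stand for.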
